A study of Saccharomyces cerevisiae with 10 samples.

Results

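Peaks of open chromatin that lie outside promoters were followed through a 28-day yeast evolution experiment in which cells with the lowest reporter expression were kept until Day 7 and growth was free of selection afterwards. The members are the merged ATAC-seq peaks that the authors' annotation puts at a transcription termination site (TTS, 376 peaks), in an exon (114 peaks) or between genes (Intergenic, 24 peaks). They make up 514 of the 3515 merged peaks, and the other 3001 carry the label promoter-TSS. The cells were W303 haploids of mating type alpha with a GAL1 promoter driving YFP at the HO locus (W303 MATalpha HO::HIS3::pGAL1-YFP), named WP35. The Day 0 group is the unevolved strain, and the Day 3, Day 7, Day 10 and Day 28 groups are samples of the evolved strain frozen on those days. All of them were revived and grown in synthetic complete medium with 0.1% mannose and 0.2% galactose before the assay. Each of the 5 days has 2 libraries. They come from a single evolving population, so their spread is that between libraries and not that between independently evolved populations.

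ATAC-seq uses a transposase that cuts DNA where nucleosomes leave it exposed, and the count of sequenced fragments over a peak follows how open that stretch is. In budding yeast most open DNA lies in the nucleosome-depleted regions just upstream of genes. Open DNA elsewhere is known at replication origins, at the ends of convergent genes, at centromeres, at subtelomeric X elements and along the bodies of very active genes. A TTS peak therefore need not be related to termination, and the label records only where the centre of the peak falls.

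The sequences below are the central 200 bases of some named peaks, on the forward strand of the yeast R64 assembly. These peaks are the member inside GAL2 and, in each class, those named for the largest rise and fall from Day 7 to Day 10. Capitals mark a match to a motif searched on both strands: TTACCCG (Reb1), TGACTCA (Gcn4), CACGTG (Cbf1), AGGGG (Msn2/Msn4), ACACCCA (Rap1), TATAAA (the TATA box), the spaced CGG and CCG pair of Gal4, or a fixed palindrome of Mcm1.
TTS peak in GAL2, chrXII:291498-291697: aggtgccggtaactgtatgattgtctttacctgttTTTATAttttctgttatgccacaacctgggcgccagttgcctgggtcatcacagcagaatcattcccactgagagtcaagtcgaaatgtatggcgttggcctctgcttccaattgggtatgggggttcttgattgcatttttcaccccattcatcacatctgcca
TTS peak in TIR4, chrXV:345419-345618: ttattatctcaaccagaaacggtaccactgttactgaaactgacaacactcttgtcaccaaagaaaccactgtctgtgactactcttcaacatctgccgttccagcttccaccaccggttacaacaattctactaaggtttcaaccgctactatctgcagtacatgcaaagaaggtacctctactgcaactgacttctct
exon peak in FLO10, chrXI:648174-648373: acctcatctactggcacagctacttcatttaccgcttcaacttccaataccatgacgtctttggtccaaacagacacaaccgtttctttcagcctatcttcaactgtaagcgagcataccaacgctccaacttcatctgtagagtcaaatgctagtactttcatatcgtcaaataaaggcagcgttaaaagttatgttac
Intergenic peak near CSS1, chrIX:28002-28201: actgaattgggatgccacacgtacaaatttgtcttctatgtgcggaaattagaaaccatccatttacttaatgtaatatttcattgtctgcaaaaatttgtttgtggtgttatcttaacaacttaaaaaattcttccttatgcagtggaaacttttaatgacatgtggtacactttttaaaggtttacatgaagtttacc
TTS peak over ALD4, chrXV:1040121-1040320: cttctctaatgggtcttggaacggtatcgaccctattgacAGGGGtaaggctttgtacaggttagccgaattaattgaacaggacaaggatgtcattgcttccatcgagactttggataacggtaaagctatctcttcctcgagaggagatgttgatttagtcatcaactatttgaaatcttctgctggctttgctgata
exon peak over SED1, chrIV:600965-601164: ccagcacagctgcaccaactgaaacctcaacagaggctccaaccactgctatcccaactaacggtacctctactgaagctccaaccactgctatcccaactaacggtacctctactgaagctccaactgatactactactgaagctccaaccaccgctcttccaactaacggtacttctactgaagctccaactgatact
Intergenic peak near YIR018C-A, chrIX:386650-386849: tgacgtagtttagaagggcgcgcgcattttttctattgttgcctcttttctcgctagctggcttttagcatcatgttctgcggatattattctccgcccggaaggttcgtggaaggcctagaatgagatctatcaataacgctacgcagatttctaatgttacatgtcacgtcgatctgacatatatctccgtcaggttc
The stretches in GAL2, TIR4, FLO10, ALD4 and SED1 lie inside the gene named. The capitals in GAL2 are TATAAA on the reverse strand and those in ALD4 are AGGGG. The 2 Intergenic stretches hold no motif match. GC content was 31.5% at the CSS1 centre and 49.5% at the SED1 centre.

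The pair below gives 2 centromeres that lie in TTS and exon peaks, since centromere peaks are described later. Capitals mark the first and the third conserved element (CDEI and CDEIII), as the R64 annotation sets them, and the lower-case part is the AT-rich CDEII.
CEN9, chrIX:355629-355745: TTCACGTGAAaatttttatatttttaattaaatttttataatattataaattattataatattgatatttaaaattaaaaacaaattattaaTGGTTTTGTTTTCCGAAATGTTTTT
CEN16, chrXVI:555957-556073: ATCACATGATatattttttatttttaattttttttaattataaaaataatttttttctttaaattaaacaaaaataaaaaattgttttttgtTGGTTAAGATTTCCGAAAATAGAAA
CDEI of CEN9 holds the Cbf1 letters CACGTG, and CDEI of CEN16 does not. The 82 bases of CDEII were 97.6% A or T in CEN9 and 95.1% in CEN16.

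Over the 514 members together, each motif searched was less frequent at the peak centre than at the centres of promoter-TSS peaks of like mean count, as a description with no test. Within the central 300 bases, the Reb1 letters occurred in 1.56% of the 514 peaks, against 4.36% of promoter-TSS peaks of like mean count and 6.83% of all promoter-TSS peaks. The general regulatory factor Reb1 is known to keep promoters free of nucleosomes. TATAAA occurred in 29.2% of the members and 41.2% of the promoter peaks of like count, and a run of 8 A or 8 T in 13.4% and 26.2%. Exon peaks had the fewest runs, at 3.51%, and Intergenic peaks the most, at 33.3%, above those promoter peaks. The Gal4 letters were in 1.17% of the members, 1.6% of promoter peaks of like count and 2.23% of all promoter-TSS peaks. For the Msn2/Msn4 letters, a short stress-response motif, these shares were 18.9%, 22.9% and 23.9%. These are matches of letters, with no evidence of binding.

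The members fell into 2 kinds of interval. A total of 184 peaks held at least one annotated gene start (135 TTS, 43 exon and 6 Intergenic peaks), although their centres lay elsewhere, and 330 held none (241 TTS, 71 exon and 18 Intergenic). The first kind was long, with a median length of 2910 bases in the exon class and 1842 in the TTS class, and 150 of the 184 covered at least one whole gene. The second was short, at 355 and 447 bases. Its median mean normalized count over the 10 libraries was 738, against 5412 for the first kind, and per kilobase the medians were 1750 and 2398. Exon peaks without a gene start were the richest in GC, at a median of 43.4%, where promoter-TSS peaks had 38.3%. The centres of 213 of the 330 lay inside a gene, and 72 lay between convergent genes. Exon peaks over a whole gene numbered 40, among them those over PUT4, JEN1, ADH2 and SED1.

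The days on which the peak caller found a peak differed in the same way. Of the 184 peaks holding a gene start, 165 had been called on all 5 days. Of the 330 without one, 91 had been called on all 5 days and 148 on Day 10 or Day 28 alone. Across all members 291 were called on Day 7 and 471 (Day 10), while promoter-TSS peaks went from 2655 to 2928. A peak that entered the merged set only through Day 10 or Day 28 had to be high on those days and was not called on Day 7. A fall to Day 7 or a rise to Day 10 in those 148 peaks thus partly restates how they were found. Their values are therefore given apart.

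The members overlapped several kinds of annotated feature. Origins of replication overlapped 56 TTS peaks (14.9%), 9 exon peaks (7.89%) and 5 Intergenic peaks (20.8%), against 168 promoter-TSS peaks (5.6%). Promoter peaks of like count overlapped an origin in 6.01%, 8.6% and 5%, so the exon class was not above them. Centromeres overlapped 8 TTS and 1 exon peak and 7 promoter-TSS peaks, and telomeres overlapped 12 TTS, 1 exon and 3 Intergenic peaks and 12 promoter-TSS peaks. A total of 53 members lay within 20 kb of a chromosome end, 10 of them Intergenic. More than 10% of 100-base windows occurred elsewhere in the genome in 8 members, so that reads there may be shared between copies. Transfer RNA genes, whose RNA polymerase III transcription keeps them open, overlapped 31 members, 30 of them TTS peaks, and 226 promoter-TSS peaks (6.03% and 7.53%). Each of those 31 peaks held a gene start.

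Library totals in peaks ran from 4748625 to 18693542 counts, and the library of lowest depth was Day 28 replicate 1. The TTS class held between 8.31% and 8.61% of the counts of a library once 1 ribosomal DNA peak was left aside. That peak, at the end of the ETS2-2 spacer unit (chrXII:459433-461006, over RDN5-1), had a mean normalized count of 276431 per kilobase, the highest of the TTS class. It lies in a tandem repeat, 42.0% of its windows occur elsewhere, and edgeR with TMM called it in no comparison. DESeq2 called it between Day 0 and Day 3 and between Day 0 and Day 28, and offsets for abundance between Day 3 and Day 7 and between Day 7 and Day 10. The exon class took 4.19% (95% exact binomial interval 4.18 to 4.20) and 4.51% (4.50 to 4.52) of the counts on Day 0. It took 5.14% (5.13 to 5.15) and 5.03% (5.02 to 5.04) on Day 7 and 4.09% (4.08 to 4.1) and 3.96% (3.95 to 3.97) on Day 10. The intervals cover counting error only. Both Day 7 shares lay above all other libraries, and exon peaks with a gene start carried the difference: they took 4.82% and 4.70% on Day 7 and 3.56% and 3.32% on Day 10. Exon peaks without a gene start went the other way, from 0.322% and 0.335% on Day 7 to 0.527% and 0.645% on Day 10. Of these 71 peaks 46 had been called on Day 10 or Day 28 alone. No test of these shares was made, and none was taken for promoter peaks of like count. From Day 7 to Day 10 the median log2 fold change of exon peaks with a gene start was −0.49. Promoter peaks of like count had −0.59.

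**Figure D1:**
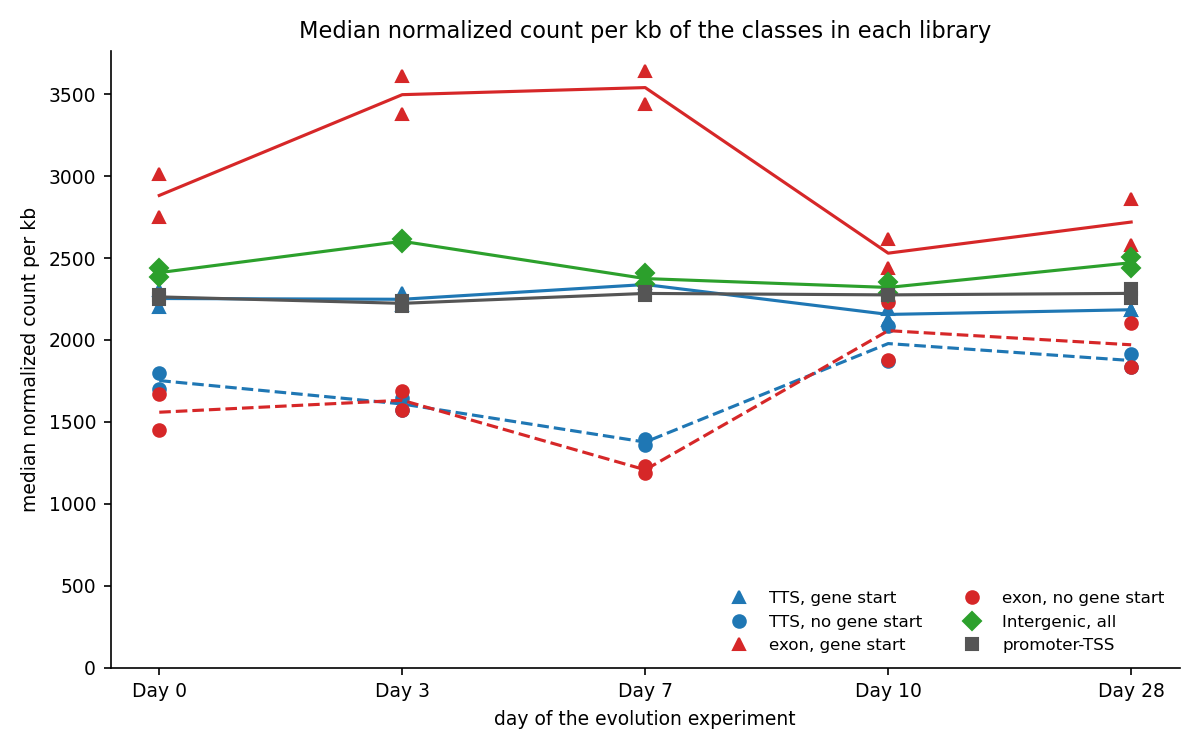
Median normalized count per kilobase (vertical axis, from 0) of TTS and exon peaks with and without a gene start, all Intergenic peaks and promoter-TSS peaks in each library, by day (horizontal axis, evenly spaced); points are libraries and lines join the means of each day. On Day 7, TTS peaks without a gene start stood at 1357 and 1397 and exon peaks without one at 1187 and 1229, below each other library of their class. Of these peaks, 101 of the 241 TTS peaks and 46 of the 71 exon peaks had been called on Day 10 or Day 28 alone.

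The peaks of highest and lowest density show the range within each class. In the exon class the highest was the peak over PUT4 (chrXV:986386-989966), which encodes the proline permease, with 9876 normalized counts per kilobase, and the lowest was a peak inside SEC16 (chrXVI:391510-392199), a gene of the COPII vesicle coat, with 1026. In the Intergenic class the highest was the peak near KTI12 (chrXI:229850-231981), 8602, and the lowest the peak near CSS1 (chrIX:27404-28800), 1223. The lowest TTS peak lay in a Ty element at the YDR261W-B end (chrIV:987439-987660), with 883 per kilobase. It is 222 bases long, 20.3% of its windows are repeated, and its lowest raw count was 86.

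Changes between days were tested with the edgeR quasi-likelihood test over all 3515 peaks, at a Benjamini-Hochberg adjusted p under 0.05. Fold changes followed the mean count of a peak in most comparisons. Between Day 7 and Day 10 the correlation across the 514 members of log2 fold change with log2 mean count was −0.77, over peaks that share libraries and are not independent. Each member was therefore set beside the 5 promoter-TSS peaks nearest in mean normalized count. These were chosen by mean count alone and not by day of calling. Over all members 24.1% of them had been called on Day 10 or Day 28 alone. The differences between classes and these promoter peaks are given as medians and counts, with no test.

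Between Day 0 and Day 3, the first days of selection, peaks at telomeres rose and several peaks at centromeres fell, while the median log2 fold change was −0.06 for TTS, 0.13 for exon and 0.07 for Intergenic peaks. Of the 514 members 88 passed the test (17.1%), where 18.6% of all peaks did. Higher on Day 3 were 38 (9.59% of all peaks passed in that direction) and lower 50 (8.99% of all peaks). TTS peaks gave 26 higher and 48 lower, exon peaks 7 and 1, and Intergenic peaks 5 and 1. The balance depended on scaling: DESeq2 gave 69 higher and 56 lower, offsets for GC content and length 66 and 54, offsets for abundance 44 and 32, and scaling by total counts, which moved the median of all peaks to −0.21, 30 and 101. With the abundance offsets 11.6% of all peaks passed, and with those for GC content and length 22.9%. Without Day 3 replicate 2 the test passed 27 members, and without Day 0 replicate 1 it passed 46.

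The largest rise was at the LEU2 locus. This TTS peak (tL(CAA)C, chrIII:90579-92893) covers a leucine transfer RNA gene and the whole of LEU2, an enzyme gene of leucine synthesis. Its normalized counts were 4943 and 5417 (Day 0), 20391 and 20979 (Day 3), 18356 and 17646 (Day 7), 15505 and 14109 (Day 10), and 14481 and 16836 (Day 28). Both Day 0 libraries lay far below the other 8, which kept between 14109 and 20979. The log2 fold change from Day 0 to Day 3 was 1.97 ± 0.20 (SE; edgeR adjusted p = 9.5e-20), and its promoter peaks of like count averaged 0.54. LEU2 is one of the marker genes mutated in W303, and the methods list a mutant leu2 allele for the unevolved strain. Whether the allele has to do with these counts was not tested.

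Exon peaks without a gene start stood above promoter peaks of like count, with no test of the difference. Their median log2 fold change was 0.05 beside −0.21, and 63 of the 71 lay above the mean of their promoter peaks. For exon peaks with a gene start the medians were 0.26 and 0.30. With offsets for GC content and length the pair for exon peaks without a gene start was 0.01 and −0.04. The GC content of these 71 peaks was a median 43.4%. In the promoter peaks of like count of all 114 exon peaks it was 38.1%.

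Among exon peaks the largest rise was inside IMD2 (chrVIII:555221-555451), an inosine monophosphate dehydrogenase gene near the right end of chromosome VIII. It had 335 and 237 normalized counts (Day 0) and 469 and 557 (Day 3) (log2 fold change 0.82 ± 0.19, adjusted p = 0.00039), and then 211 and 213 (Day 7). Of the Intergenic class, the peak near YLR462W (chrXII:1063870-1065442), which overlaps the right telomere of chromosome XII, rose from 7319 and 9005 to 13450 and 15105 (0.78 ± 0.18, edgeR adjusted p = 0.00042). The days did not overlap in either peak. The IMD2 peak had been called on Day 3 and Day 10 alone, so its rise to Day 3 partly restates how it was found. Both calls were lost without Day 3 replicate 2, at edgeR adjusted p of 0.13.

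The falls were smaller. The TTS peak at the end of YME1 (chrXVI:613273-613505), centred in CCL1, had 523 and 551 counts (Day 0) and 365 and 275 (Day 3) (−0.76 ± 0.18, edgeR adjusted p = 0.00066). An exon peak in YIL089W (chrIX:195708-196491) fell from 1200 and 1114 to 867 and 799 (−0.49 ± 0.11, adjusted p = 0.00023). The YME1 peak had been called on Day 0 alone, so its fall partly restates how it was found. The YIL089W peak had been called on each day but Day 3, the day on which it was low. Neither peak passed without Day 3 replicate 2, at edgeR adjusted p of 0.17 and 0.062. The Intergenic peak near tC(GCA)P2 (chrXVI:776541-777768), which overlaps the origin ARS1635, had 2081 and 1868 and then 1860 and 1534 (−0.24 ± 0.08, edgeR adjusted p = 0.019). It was lost under DESeq2 (adjusted p = 0.064), under both kinds of offset, in the fit of all 10 libraries and without Day 0 replicate 1 or Day 3 replicate 2.

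All 16 members that overlap a telomere passed the test as higher on Day 3. Their log2 fold changes ran from 0.41 at ARR3 (chromosome XVI right end) to 0.94 at YER189W (chromosome V right end), with a median of 0.61, where their promoter peaks of like count had 0.20. The YER189W peak had been called on Day 3 alone, the day on which it was high. The next highest was 0.79, at the IMD2 end, in a peak called on all 5 days. Summed over the 16, normalized counts were 61970 and 73132 (Day 0), 101701 and 110182 (Day 3), 97875 and 86740 (Day 7), 62506 and 53336 (Day 10), and 56011 and 70431 (Day 28). The Day 3 and Day 7 libraries all lay above the other 6. From Day 7 to Day 10 the same group had 13 peaks lower and 2 higher, with a median of −0.67. Of promoter peaks of like count 52.5% were lower, with a median of −0.31, and of all peaks 32.8% were lower. With offsets for abundance the medians were −0.23 and 0.01. The 2 higher peaks were YBL113W-A, called on Day 10 alone, and YFL066C, called on Day 3, Day 10 and Day 28. The 12 promoter-TSS peaks that overlap a telomere did alike, with 12 of 12 higher by Day 3 and 12 of 12 lower by Day 10. With offsets for GC content and length 15 of the 16 rose, and leaving out 1 library in turn left between 10 and 15 called. Telomeres of yeast carry repeated X and Y′ elements, bound by silencing proteins. Among the 16 peaks the share of repeated windows reached 38.5%, at YFL066C.

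Of 9 members at a centromere 5 were lower on Day 3 and none higher, with a median of −0.44 beside 0.02 for promoter peaks of like count. Those 5 peaks hold CEN3, CEN4, CEN9, CEN12 and CEN14. At CEN9 (YIL001W, chrIX:354988-356244) the counts were 2522 and 2458 (Day 0), 1808 and 1763 (Day 3), 2036 and 1976 (Day 7), 1976 and 2177 (Day 10), and 1537 and 1951 (Day 28). Its log2 fold change to Day 3 was −0.50 ± 0.08 (edgeR adjusted p = 1.2e-08), and no later library reached the Day 0 level. The exon peak over CEN16 and CIT3, a mitochondrial citrate synthase gene, had 4520 and 4253 (Day 0) and 4181 and 4448 (Day 3) and did not pass (−0.05 ± 0.10). Of the 7 promoter-TSS peaks at a centromere 5 were lower too. Each left-out library left 5 of the 9 called, and offsets for GC content and length left 4.

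**Figure D2:**
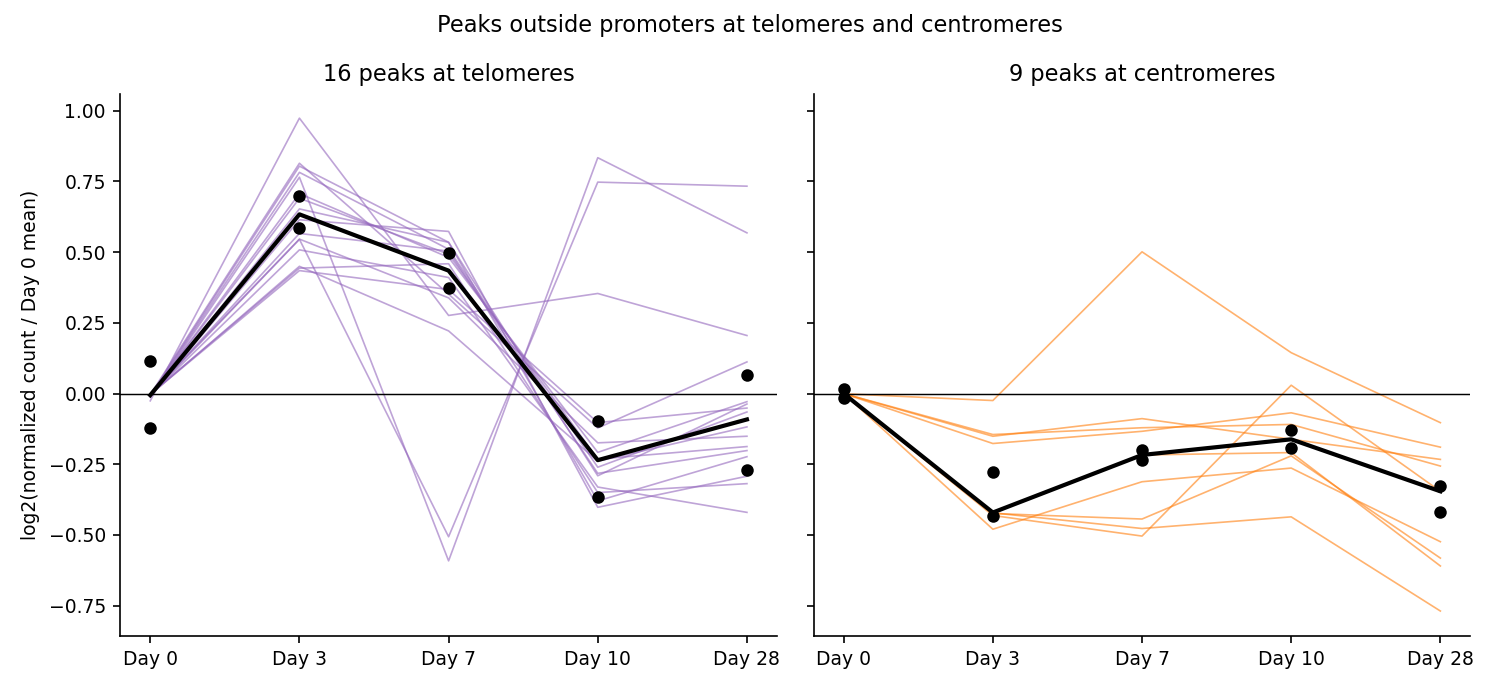
Log2 of the normalized count over the mean of the Day 0 libraries (vertical axis) by day (horizontal axis, evenly spaced) for the 16 members at telomeres (left) and the 9 at centromeres (right); thin lines are peaks, the thick line is the median over peaks of the mean of both libraries, and points are medians in each library. The telomere median lies above 0 in both libraries of Day 3 and of Day 7, and the centromere median lies below 0 in each library after Day 0.

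Between Day 3 and Day 7, while selection went on, peaks outside promoters fell more often than promoter peaks of like count. A total of 240 members passed (46.7%, against 32.1% of all peaks). Lower on Day 7 were 195 (17.4% of all peaks passed as lower), and higher 45 (14.7% of all peaks). TTS peaks gave 139 lower and 29 higher, exon peaks 50 and 13, and Intergenic peaks 6 and 3. The lower medians were those of peaks without a gene start. Exon peaks of that kind had a median log2 fold change of −0.42, where their promoter peaks of like count had 0.00, and 63 of the 71 lay below the mean of their promoter peaks. For TTS peaks without a gene start the medians were −0.22 and −0.01, and 108 of the 241 passed as lower, against 13.2% of promoter peaks of like count. Exon peaks with a gene start had 0.09 and TTS peaks with one −0.01, where the promoter peaks had 0.01 and −0.01.

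Of the 195 members lower on Day 7, 97 were among the 157 that the caller had found only on Day 10 or Day 28. Not being called on Day 7 goes with a low Day 7 value, so their fall partly restates how they were found. Among peaks without a gene start that had been called on Day 0, Day 3 or Day 7, 64 of 182 were lower and 17 higher, and the medians were −0.11 for these peaks and 0.02 for promoters. Of the 148 late ones 95 were lower and 2 higher, at −0.42 and −0.05. The 182 still include peaks not called on Day 7, so the same limit holds for part of them. Among the 91 called on all 5 days 23 were lower and 13 higher, and the medians were −0.05 and 0.03. Promoter peaks of like count to these 91 passed as lower in 12.7% and as higher in 16.5%. Under offsets for abundance, which take out the trend with mean count, exon peaks without a gene start had −0.28 against 0.10. With offsets for GC content and length 318 members passed (47% of all peaks). Without Day 7 replicate 1 the count of members passing was 116, without Day 7 replicate 2 it was 123, and in a single fit of all 10 libraries it was 145.

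The largest falls were in a Ty element and in FLO10. At the YDR261W-B end, in a Ty element, the counts were 305 and 158 (Day 3) and 71 and 72 (Day 7) (log2 fold change −1.72 ± 0.20, edgeR adjusted p = 1.1e-10). The largest exon fall was in FLO10 (chrXI:648164-648384), which encodes a cell-surface flocculin. Its counts were 196 and 174 (Day 0), 254 and 303 (Day 3), 93 and 108 (Day 7), 339 and 482 (Day 10), and 420 and 385 (Day 28). Day 7 was the lowest of the 5 days without overlap (−1.46 ± 0.17, adjusted p = 1.0e-10). The Ty peak had been called on Day 10 alone and the FLO10 peak on Day 10 and Day 28 alone, so both entered the merged set through days on which they were high. The Intergenic peak near CSS1 went from 1760 and 1512 to 1202 and 1103 (−0.50 ± 0.07, edgeR adjusted p = 4.8e-08). It had been called on Day 0, Day 10 and Day 28 and not on Day 7, so its low on Day 7 partly restates how it was found.

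The largest rises were over ADH2 and CRS5. ADH2 encodes the glucose-repressed alcohol dehydrogenase that oxidises ethanol, and the exon peak over it (chrXIII:872173-875251) had 7850 and 8501 counts (Day 0), 8765 and 9937 (Day 3), 18823 and 17978 (Day 7), 7550 and 6934 (Day 10), and 7111 and 7919 (Day 28). The other 8 libraries lay between 6934 and 9937. The change from Day 3 was 0.98 ± 0.10 (adjusted p = 4.4e-13). The largest TTS rise was at the HMS1 end, over CRS5, a copper metallothionein gene (chrXV:388910-389610), from 2432 and 2409 to 4263 and 4270 (0.82 ± 0.06, edgeR adjusted p = 1.1e-19). In the Intergenic class the peak near tD(GUC)J4, over the origin ARS1018 (chrX:540192-540818), rose from 1047 and 974 to 1225 and 1252 (0.30 ± 0.08, edgeR adjusted p = 0.0024), a call that was lost without either Day 7 library (edgeR adjusted p = 0.095 and 0.15).

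**Figure D3:**
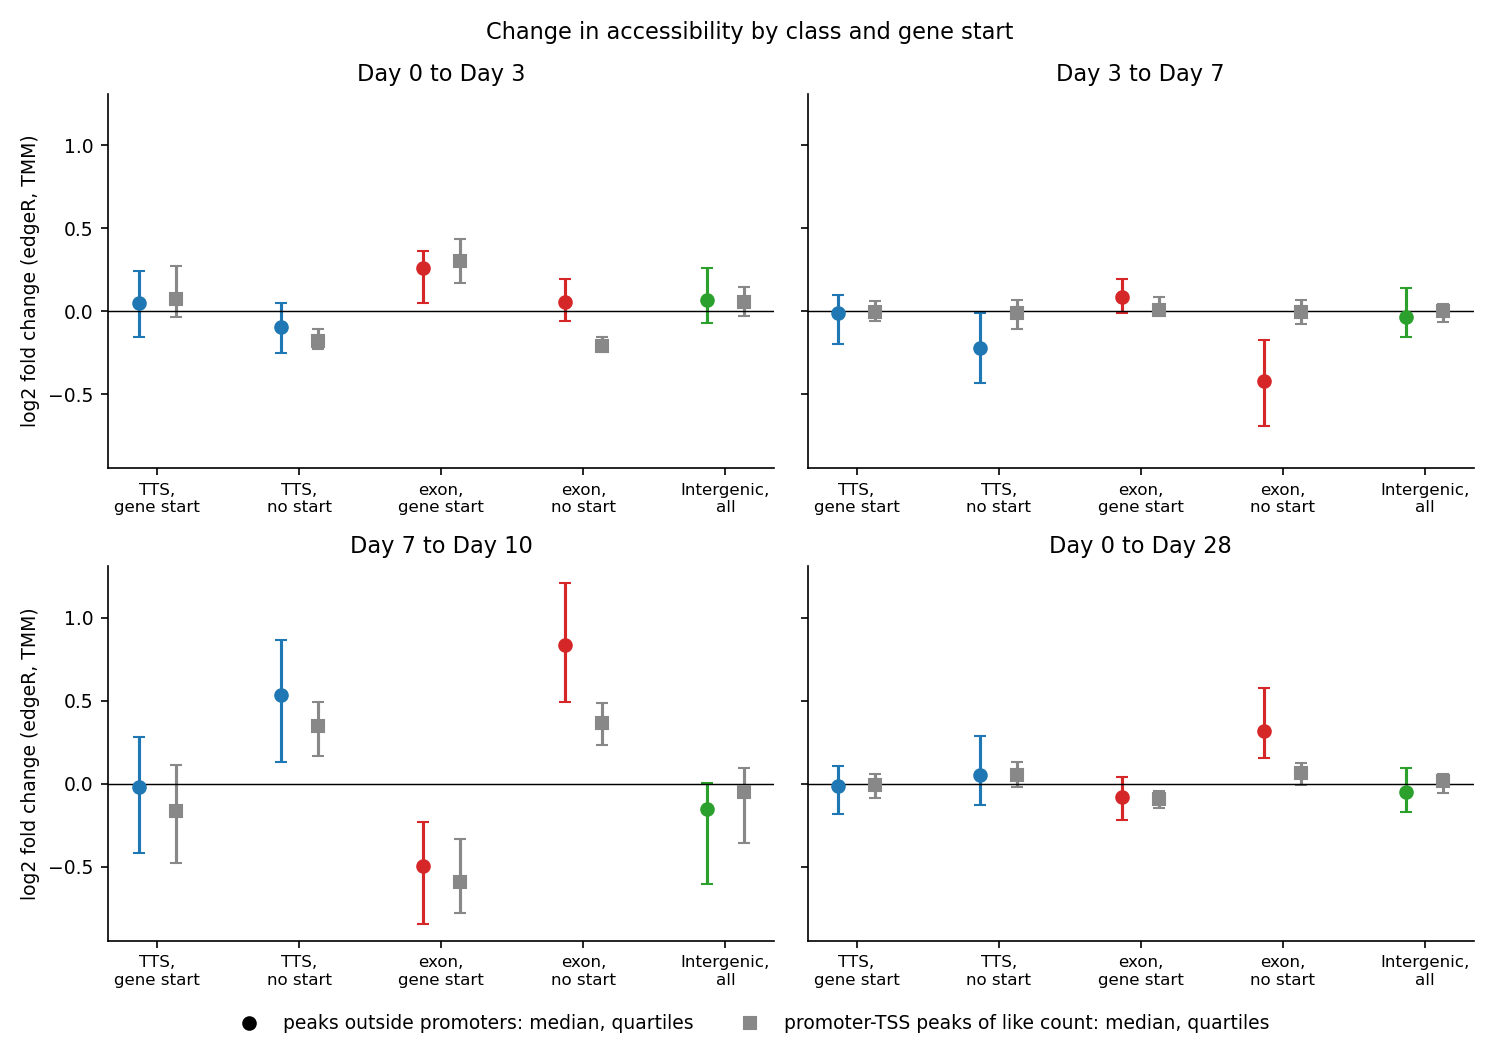
Log2 fold change (vertical axis) of peaks outside promoters (coloured circles) and of the 5 promoter-TSS peaks nearest in mean normalized count (grey squares), by class and gene start (horizontal axis), in 4 comparisons; symbols are medians and bars the quartiles. Exon peaks without a gene start stand at −0.42 beside 0.00 between Day 3 and Day 7 and at 0.83 beside 0.37 between Day 7 and Day 10. Of these 71 peaks 46 had been called on Day 10 or Day 28 alone, so both values partly restate how they were found. The 25 called on an earlier day, some of them not on Day 7, had −0.21 beside 0.02 between Day 3 and Day 7. The 8 called on all 5 days had −0.21 beside −0.03.

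Between Day 7 and Day 10, after selection had been lifted, most members passed the test, and short peaks inside genes passed mostly as higher. A total of 404 members passed (78.6%, where 70.2% of all peaks did). Higher on Day 10 were 277 (37.4% of all peaks passed as higher) and lower 127 (32.8% of all peaks). TTS peaks gave 210 higher and 78 lower, exon peaks 63 and 37, and Intergenic peaks 4 and 12. Scaling by total counts, which put the median of all peaks at 0.36, gave 370 higher and 80 lower. Of the 71 exon peaks without a gene start, 46 had been called on Day 10 or Day 28 alone. Among exon peaks, 61 of the 71 without a gene start were higher, where 61.7% of promoter peaks of like count were. Of the 43 with a gene start 33 were lower (76.7%), where 80.5% of promoter peaks of like count were.

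Much of this went with the mean count of a peak. Exon peaks with a gene start had a median of −0.49, and promoter peaks of like count −0.59. TTS peaks without a gene start had 0.54 against 0.35, and exon peaks without one 0.83 against 0.37. In the Intergenic class the median was −0.15, with −0.05 in promoter peaks of like count, and of the 18 without a gene start 14 lay below the mean of their promoter peaks. Offsets for abundance brought the promoter peaks near 0 and left exon peaks without a gene start at 0.30 against −0.10 and TTS peaks without one at 0.09 against −0.06.

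The difference from promoters was larger in the late-called peaks. Of the 148 peaks without a gene start that were called on Day 10 or Day 28 alone, 137 were higher, with a median of 0.94 beside 0.46. Of the 182 called on an earlier day, some of them not on Day 7, 93 were higher and 41 lower, at 0.23 beside 0.22. The promoter peaks beside both groups were not split by day of calling. For TTS peaks of that earlier group the values were 0.25 and 0.23, and for the 25 exon peaks 0.48 and 0.29. Offsets for abundance put the earlier group at −0.06 against −0.03, with 55 peaks higher and 73 lower (59.9% of all peaks passed with those offsets).

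**Figure D4:**
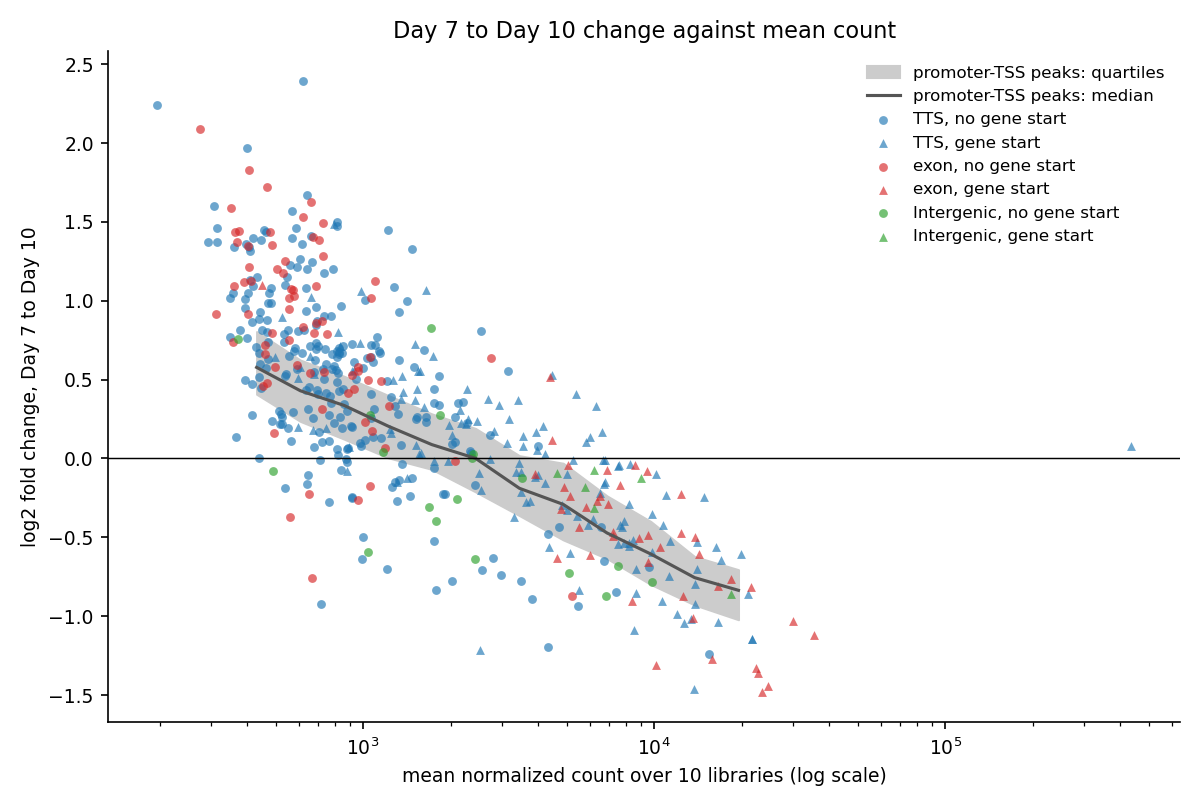
Log2 fold change from Day 7 to Day 10 (vertical axis) against mean normalized count over the 10 libraries (horizontal axis, log scale) for each of the 514 members, by class and gene start; the grey line and band are the median and quartiles of promoter-TSS peaks in bins of count. The change falls with mean count in members and promoters, and the ribosomal DNA peak stands alone at the far right.

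The largest rise was in TIR4, a gene of the cell-wall mannoprotein family. This TTS peak (annotated to the TIR2 end, chrXV:345286-345753) had 507 and 328 counts (Day 0), 457 and 541 (Day 3), 207 and 185 (Day 7), 831 and 1156 (Day 10), and 1230 and 764 (Day 28). The Day 7 libraries were the lowest and the 4 later libraries the highest. The log2 fold change was 2.39 ± 0.16 (edgeR adjusted p = 2.1e-07), and promoter peaks of like count averaged 0.37. The peak was called on Day 10 and Day 28 alone. In FLO10, with the counts given above, the change was 2.09 ± 0.25 (adjusted p = 7.4e-06), again in a peak called on those 2 days alone. The peak near CSS1 rose from 1202 and 1103 to 1877 and 2088 (0.83 ± 0.07, edgeR adjusted p = 9.1e-07), and was one of 4 Intergenic peaks to do so. It had been called on Day 10 and not on Day 7, so this rise too partly restates how it was found.

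The largest falls were over SED1 and ALD4. SED1 encodes a major cell-wall glycoprotein, and its exon peak (chrIV:599338-602793) had 17559 and 24068 counts (Day 0), 27268 and 30588 (Day 3), 40793 and 36804 (Day 7), 15662 and 11432 (Day 10), and 12932 and 18520 (Day 28). Day 7 was the highest without overlap (to Day 10, −1.48 ± 0.18, adjusted p = 1.0e-05). Promoter peaks of like count averaged −0.98, and with offsets for abundance the fall was −0.42. The TTS peak at the NUD1 end lies over ALD4 (chrXV:1038832-1041611), the mitochondrial aldehyde dehydrogenase gene. It had 13531 and 16384 counts (Day 3), 25662 and 23610 (Day 7) and 9556 and 7842 (Day 10). That is a rise of 0.73 ± 0.11 and then a fall of −1.46 ± 0.14 (edgeR adjusted p = 3.6e-07 and 2.0e-06), where promoter peaks of like count had 0.01 and −0.71. The largest Intergenic fall was near YIR018C-A (chrIX:386311-387189), from 8430 and 8224 to 5072 and 3797 (−0.87 ± 0.11, adjusted p = 1.3e-05).

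Of the 40 exon peaks that cover a whole gene, 32 were lower on Day 10 and 1 was higher, with a median of −0.50 beside −0.61 for promoter peaks of like count, of which 82% were lower. The balance turned with offsets for abundance, to 14 higher and 11 lower, and was 8 and 21 by total counts. The 108 TTS peaks that cover a whole gene had 29 higher and 47 lower, 56 and 17 with offsets for abundance, and 58 and 30 by total counts. Among the larger falls, chosen after their values were seen, were those over JEN1, the lactate and pyruvate transporter gene (−1.44), ADH2 (−1.31), and ACS1, an acetyl-coenzyme A synthetase gene (−1.27). All 3 had been among the peaks higher on Day 7 than on Day 3 (0.55, 0.98 and 0.67), where 11 of the 40 rose and 4 fell. Of promoter peaks of like count 10% rose and 7% fell, and of all peaks 14.7% and 17.4%. Both comparisons share the Day 7 libraries, so the rise and the fall of these peaks are not independent. The PUT4 peak fell as well (−1.12 ± 0.19), as did the peak near KTI12 (−0.86 ± 0.14). Both lie where promoter peaks of like count averaged −0.88 and −0.76, and with offsets for abundance neither kept its direction (0.10 and 0.017).

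**Figure D5:**
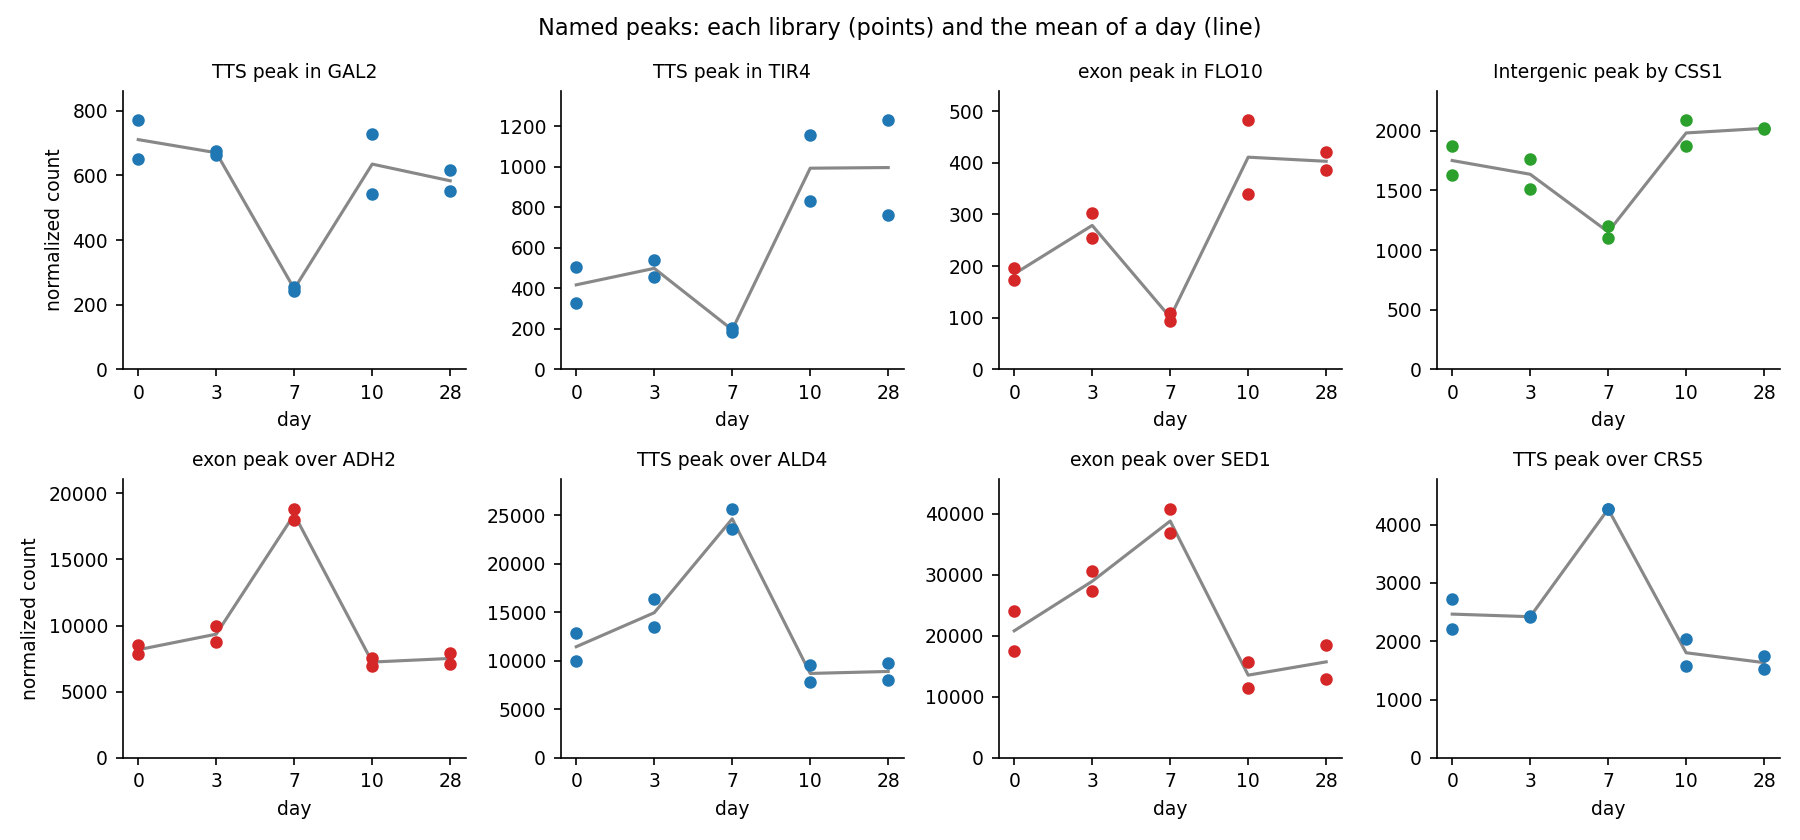
Normalized count (vertical axes, each from 0) of 8 named peaks by day (horizontal axes, evenly spaced); points are libraries and lines join the means of each day. The 4 peaks of the upper row, none of them called on Day 7, are lowest on Day 7 and the 4 of the lower row highest on Day 7.

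From Day 10 to Day 28 no member passed the edgeR test (0% of all peaks), and 24 had an unadjusted p under 0.05 (4.67%, against 5.55% of all peaks). DESeq2 called 2 of the 93 members it tested (1.55% of all peaks it tested), the peaks at BER1 (chrXII:949297-950980, log2 fold change 0.41) and YPR195C (chrXVI:927299-929058, 0.45). Both missed the threshold with edgeR, at an adjusted p of 0.81.

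Set against Day 0 directly, Day 28 differed at 67 members (13%, where 8.82% of all peaks passed). Higher were 45 (4.52% of all peaks) and lower 22 (4.3% of all peaks), with 28 and 20 among TTS peaks, 17 and 2 among exon peaks and none in the Intergenic class. Of the 45 higher peaks, 35 had been called on Day 10 or Day 28 alone. The count was 9 without Day 0 replicate 2, 26 without Day 28 replicate 1, 133 without Day 28 replicate 2, and 2 with offsets for GC content and length (0.228% of all peaks). Exon peaks without a gene start, 46 of the 71 called on Day 10 or Day 28 alone, had a median of 0.32 beside 0.06. The LEU2 peak was the highest of all members called (1.6 ± 0.17, edgeR adjusted p = 4.0e-05), followed by the TIR4 peak (1.25 ± 0.22, edgeR adjusted p = 0.0037). The same 5 centromere peaks that were lower on Day 3 were lower on Day 28, at −0.34 to −0.75. None of the other 4 passed. Offsets for GC content and length left 1 of the 5. Both comparisons share the Day 0 libraries, so they are not independent. Of the 7 promoter-TSS peaks at a centromere 5 were lower on Day 28 as well, with a median of −0.42 over the 7.

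Over the 5 days together an F test passed 413 members (80.4%, against 71.2% of all peaks). By class these were 296 TTS peaks (78.7%), 99 exon peaks (86.8%) and 18 Intergenic peaks (75%). Promoter-TSS peaks of like count passed in 70.8%, 73.9% and 71.7%.

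Of the GAL network, which takes up and breaks down galactose and drives the reporter, a single member lies wholly inside a gene. GAL2 encodes the galactose permease, and the TTS peak inside it (chrXII:291415-291782, annotated to the SRL2 end) had 771 and 652 counts (Day 0), 676 and 665 (Day 3), 243 and 256 (Day 7), 544 and 727 (Day 10), and 616 and 551 (Day 28). Both Day 7 libraries lay far below each other library, the lowest of which had 544. The change was −1.42 ± 0.13 from Day 3 to Day 7 (edgeR adjusted p = 3.9e-15) and 1.40 ± 0.17 from Day 7 to Day 10 (edgeR adjusted p = 9.3e-06), where promoter peaks of like count had 0.02 and 0.45. Both calls held with each library left out, over ranges of −1.47 to −1.38 and 1.16 to 1.59. The peak was called on Day 0, Day 3 and Day 10 and not on Day 7, where it was low. It covers 368 bases of the gene, well inside its coding extent (chrXII:290212-291936).

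A pair of further members touch a GAL gene at its edge, and each holds the start of that gene. The TTS peak at YDR008C (chrIV:461062-463485) reaches 52 bases into GAL3, the galactose sensor, and covers TRP1 and the origin ARS1. Its counts lay between 7090 and 8524 in all 10 libraries, and edgeR called it in no comparison. The TTS peak at RBD2 (chrXVI:82072-85838) reaches 285 bases into GAL4, the activator gene, and covers 2 whole genes. It had 6056 and 6579 counts (Day 3), 5387 and 5601 (Day 7), and 6459 and 6997 (Day 10) (−0.19 ± 0.07, edgeR adjusted p = 0.020, and 0.33 ± 0.08, adjusted p = 0.0028). Both calls were lost when either Day 7 library was left out.

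Peaks at replication origins passed in both directions. Of 70 members at an origin 9 were higher and 14 lower by Day 3, where 11.4% of promoter peaks of like count passed in each direction, and offsets for GC content and length turned the counts to 15 and 5. Between Day 7 and Day 10 the counts were 32 and 22, where promoter peaks of like count passed in 36.3% and 34%. The medians of −0.04 and 0.07 stood beside −0.05 and 0.09.

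The 31 members with a transfer RNA gene had 17 peaks lower and none higher from Day 3 to Day 7, with a median of −0.21. Of all peaks 17.4% passed as lower, and of promoter peaks of like count 19.4% passed as lower and 16.1% as higher. Among promoter-TSS peaks with such a gene 103 of 226 were lower. Peaks between convergent genes, 96 in all, had 27 lower and 7 higher by Day 3, where 8.99% of all peaks and 10% of promoter peaks of like count were lower. Offsets for GC content and length turned this balance to 19 higher and 11 lower, and offsets for abundance gave 7 higher and 10 lower.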

How the data were processed

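The study made 10 ATAC-seq libraries from revived yeast cells. Per the labels and the study's methods, the authors trimmed reads (Trim Galore 0.5.0), aligned them to R64 (Bowtie2 2.2.9), called peaks per day (MACS2 2.1.1), merged them (bedtools 2.30.0), annotated them (HOMER) and counted reads (featureCounts 1.6.3), giving the deposited raw counts. The deposited normalized values are a signal: in each library the counts divided by them give 1 constant, and the notes name DESeq2 1.30.1. Day 3, Day 28 and 1 of the Day 10 libraries were sequenced 2 times.

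The raw counts of the 4 libraries of each pair of days were fitted with edgeR 4.0.16 (quasi-likelihood, TMM), after a filter that removed no peak, with Benjamini-Hochberg adjustment at 0.05. SE is the absolute log2 fold change over the root of F. DESeq2 1.42.0 and loess offsets were alternatives. Scripts were tested on simulated data. The reference is the R64 RefSeq assembly, the build the authors used, and 459 of 490 annotated units matched a RefSeq gene. A gene start is the first base of an annotated gene, coding extent for mRNA genes. In each class and pair of consecutive days, the named peaks are the called ones with the largest rise and fall whose days do not overlap. Also named are those of highest and lowest count per kilobase and those in a GAL gene. The members and lists were chosen with earlier results of these data known, and the splits by gene start, day of calling, telomere and centromere were added after values were seen. Depth is given in the report. The labels do not say that libraries of a day came from separate cultures, so p-values measure the spread between libraries.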

Additional observations from a re-analysis of the deposited data

How the results depend on the processing

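Counts of members passing the test depended on the libraries and settings as follows. Leaving out 1 library in turn gave 27 to 113 between Day 0 and Day 3 (88 as reported), 116 to 285 between Day 3 and Day 7 (240), 299 to 444 between Day 7 and Day 10 (404), 0 to 4 between Day 10 and Day 28 (0), 9 to 133 between Day 0 and Day 28 (67), and 331 to 430 over the 5 days (413). A further requirement of an absolute log2 fold change of 0.5 left 24 between Day 0 and Day 3 and 100 between Day 3 and Day 7. Of the 256 members called on all 5 days, 48, 92, 185 and 18 passed between Day 0 and Day 3, Day 3 and Day 7, Day 7 and Day 10, and Day 0 and Day 28. Of the 357 called on Day 0, Day 3 or Day 7, a choice made after seeing the data, 141 passed between Day 3 and Day 7, 257 between Day 7 and Day 10 and 32 between Day 0 and Day 28. One fit of all libraries gave 145 between Day 3 and Day 7, offsets for GC content and length gave 2 between Day 0 and Day 28, and DESeq2 gave 2 between Day 10 and Day 28. The cause was not tested.

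For the 26 tests of named peaks, 286 of 306 alternatives kept direction and call, 18 lost the call, and 2 reversed, both with offsets for abundance between Day 7 and Day 10 (0.017 near KTI12 and 0.10 over PUT4). Unprimed and primed titles are shared only by Day 3, Day 10 and Day 28, and a replicate block by them gave 0 between Day 10 and Day 28. Libraries of the same title deviated oppositely (correlation −0.67 across 3515 peaks), and crossing the pairing gave 70, a choice made after seeing the data. Day 0 and Day 7 titles end in a, b or c instead. Each comparison that involves Day 0 or Day 7 crosses these kinds of title, and Day 10 to Day 28 does not. What the titles mark is not stated, so in the crossing comparisons day cannot be told apart from it. The lowest raw count of a named peak was 86, in the Ty element, and counting error there exceeds the spread between the Day 7 libraries (SD 0.565 about 71.2 in YDR261W-B).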
